A study of Mus musculus with 12 samples.

Results

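Among the 14063 gene symbols measured in 12 single cardiac precursor cells (CPs) of the mouse embryo, 9 genes of fibroblast growth factor (FGF) signalling and of the second heart field were followed: the ligands Fgf8, Fgf9 and Fgf10, the feedback genes Spry2 and Dusp6, the transcription factors Foxp2 and Foxc2, the WNT ligand Wnt2 and the retinoic acid enzyme Aldh1a2. They were taken by symbol, all 9 were listed, and no measured value entered the choice of rows, although earlier results of these data were known. The cells came from CD1 embryos, and the labels give no transgene or treatment. Of the 4 subpopulations 2 are of the early allantoic bud stage (EB), Nkx2-5+ CPs and Tbx5+ CPs, and 2 of the early headfold stage (EHF), one Nkx2-5+ and the other Nkx2-5+/Tbx5+. Each had 3 cells, sorted into these classes by PCR on their own amplified cDNA for Nkx2-5 and Tbx5, both cardiac transcription factor genes. The study chose these preparations as typical ones, from dissected anterior embryo parts, by presence of Cfc1 and absence of Sox17 and Sox2. Since no label ties a cell to an embryo, a subpopulation counts as 1 sample, no test was made, and all values below describe these 12 cells.

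FGF ligands are secreted proteins that bind receptor tyrosine kinases and act largely through the RAS-MAPK relay. Active signalling switches on its own brakes, among them the Sprouty proteins and the phosphatase DUSP6, and the ETS factors ETV4 and ETV5. The second heart field is the pool of mesodermal progenitors behind and beside the heart tube that adds the outflow tract and right ventricle; FGF8 and FGF10 are known for their expression and roles there, and retinoic acid is known to limit its extent.

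Values are reads per 1000000 aligned reads (RPM), not corrected for gene length, so levels are compared between cells and not between genes. A cell had 12475588 to 37905007 aligned reads, 1 read was worth 0.0264 to 0.0802 RPM, and a value of 0 allows up to 3 reads, 0.0791 to 0.240 RPM. Intervals and these limits cover counting error only, since PCR copies of a molecule are counted as separate reads. Nkx2-5 had 33.6, 41.9 and 1.48 RPM among EB Nkx2-5+, 0 in all EB Tbx5+, 201, 242 and 34.7 among EHF Nkx2-5+ and 262, 65.1 and 12.2 in EHF Nkx2-5+/Tbx5+ cells, in the order of replicates 1 to 3 used throughout. Tbx5 was at 0 in all 6 cells labelled Nkx2-5+ alone, at 0.218, 0.0276 and 0.335 RPM in the EB Tbx5+ and at 60.3, 3.69 and 8.69 in EHF Nkx2-5+/Tbx5+ cells, so replicate 2 of the EB Tbx5+ CPs carried its defining gene at the level of 1 read. Of the selection genes, Sox17 had at most 3 reads in a cell, but Cfc1 was at 0.0720 and 0.0882 RPM in EB Nkx2-5+ replicates 1 and 2 and 0.0272 in EB Tbx5+ replicate 1, 2, 2 and 1 reads, against 5.13 to 189 RPM in the other 9 cells. Sox2 was not among the listed symbols, so its absence from the cells could not be checked. EHF Nkx2-5+ replicate 3 was the shallowest library, and its listed genes summed to the lowest total, 417129 RPM against 428339 to 576187 in the other 11 cells. It is also the cell whose data came as 1 file, where the others had 3 or 4. Genes at 1 RPM or more were fewest in replicate 3 of the EHF Nkx2-5+/Tbx5+ CPs (2682) and replicate 2 of the EHF Nkx2-5+ CPs (3073), against 3249 to 5650 elsewhere.

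The 9 genes showed 2 kinds of pattern over the cells. Foxp2, Spry2 and Fgf9 gave reads in all 12 cells and Fgf10 in 10, at graded low levels that were highest in EHF Nkx2-5+ cells. Fgf8, Dusp6, Foxc2, Wnt2 and Aldh1a2 were read in 5, 7, 7, 8 and 6 cells, and 1 to 4 of these cells held nearly all of the reads. The single highest cell held 98.1% of the summed RPM of Dusp6 and 77.8% of that of Aldh1a2, but 30.7% of that of Spry2 and 41.1% of that of Foxp2. Among the first kind Fgf10 stood nearest to the second, with 71.6% in a single cell.

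**Figure D1:**
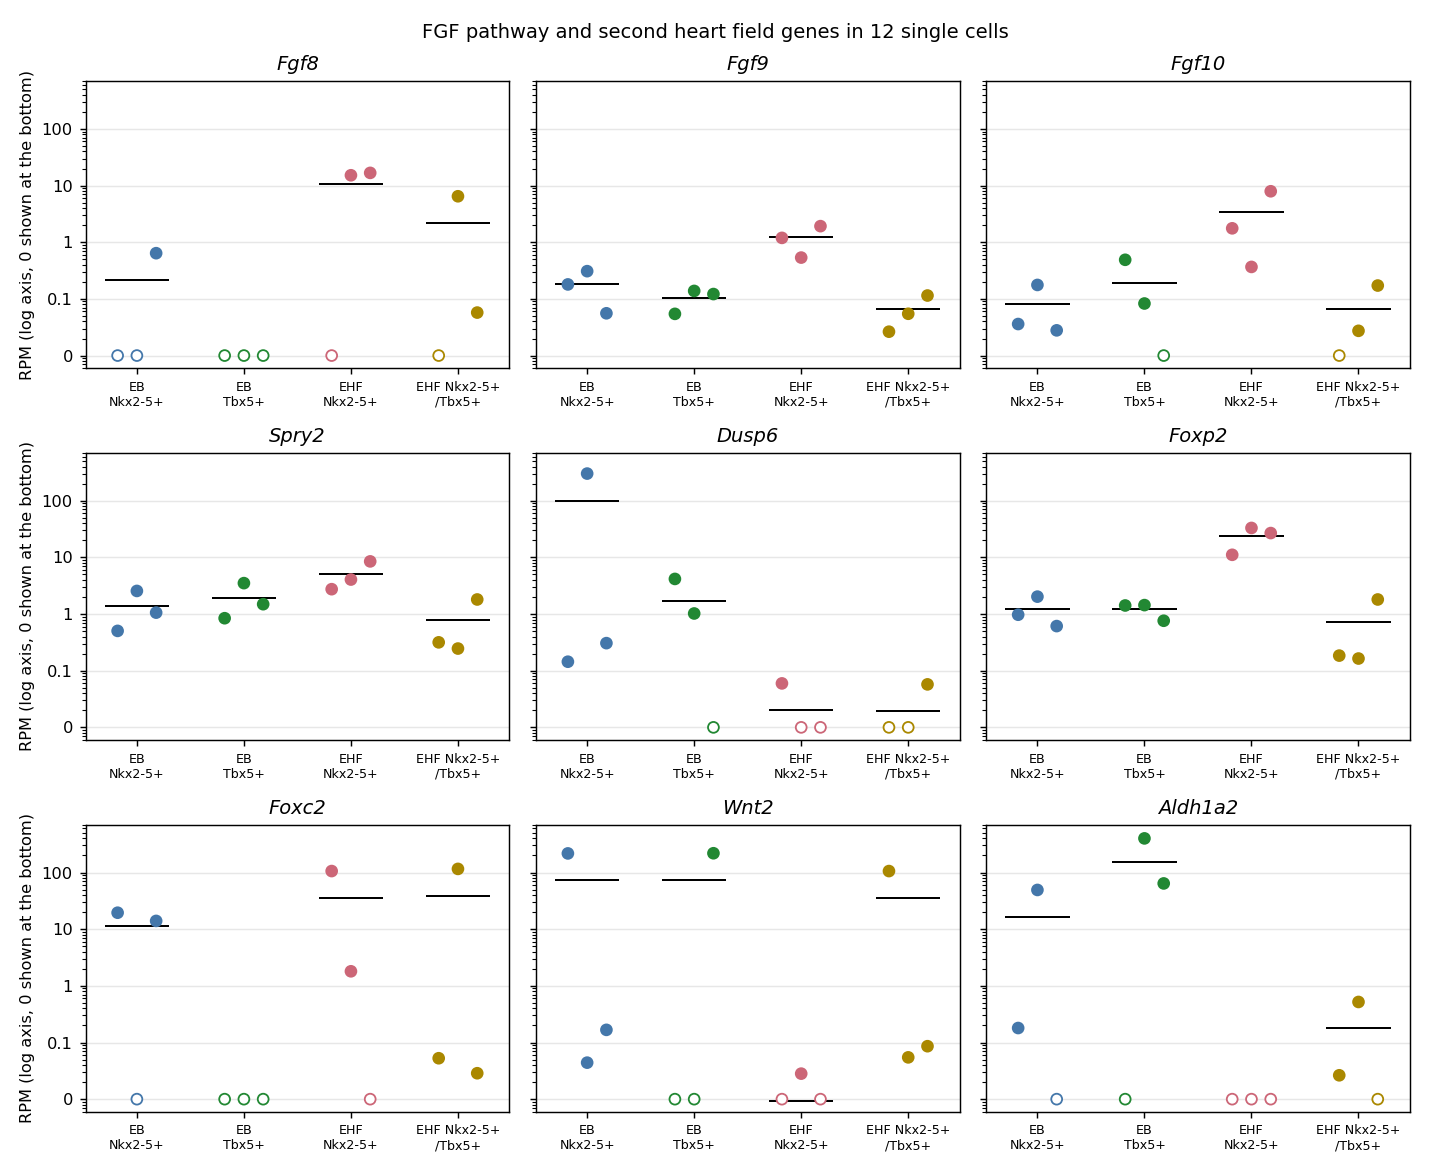
RPM of the 9 genes (log axis, 0 drawn at the bottom as open circles) in the 3 cells of each subpopulation, replicates 1 to 3 from left to right, with the group mean as a line where it is above 0. Foxp2 lies at 11.1 to 33.1 RPM in EHF Nkx2-5+ cells and at or below 2.03 in the other 9 cells, whereas Wnt2 reaches 106 to 219 RPM in 1 cell of each of the other 3 subpopulations.

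Spry2 and Dusp6 are both feedback genes of the FGF pathway but differed in pattern, so the 250 bases before the RefSeq start of each are shown (GRCm38.p6, the same build as mm10). Capitals mark the letters GGAA, the core that ETS factors such as ETV4 and ETV5 recognise, or TTCC where that core lies on the other strand. The Spry2 stretch is chr14:105896820-105897069, minus strand, with 3 matches, and the Dusp6 stretch is chr10:99262981-99263230, plus strand, with 6.
Spry2: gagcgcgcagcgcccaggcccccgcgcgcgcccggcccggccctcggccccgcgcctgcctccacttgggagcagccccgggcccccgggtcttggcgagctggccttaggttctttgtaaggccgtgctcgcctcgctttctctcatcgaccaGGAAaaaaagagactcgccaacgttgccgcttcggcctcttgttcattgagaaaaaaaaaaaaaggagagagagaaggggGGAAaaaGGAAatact
Dusp6: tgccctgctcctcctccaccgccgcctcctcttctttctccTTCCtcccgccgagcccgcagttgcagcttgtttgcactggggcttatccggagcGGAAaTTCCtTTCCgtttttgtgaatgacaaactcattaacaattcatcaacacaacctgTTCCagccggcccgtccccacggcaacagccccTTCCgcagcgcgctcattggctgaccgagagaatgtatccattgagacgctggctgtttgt
The core is short, and 93.4% of 32851 mouse stretches of this length hold it on either strand, so its presence sets neither gene apart. Of the 9 genes, 6 had such a stretch, taken from 1 transcript start each, which for Fgf9 and Wnt2 lies inside the gene span given below, and the count was 2 for Fgf9, 2 for Fgf10, 4 for Wnt2 and 0 for Aldh1a2.

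Fgf8, which encodes a ligand needed in mouse for outflow tract growth from the second heart field, lies at chr19:45736491-45742941 (mm10). It was at 0, 15.2 and 16.8 RPM in EHF Nkx2-5+ cells, at 0, 6.48 and 0.0574 in EHF Nkx2-5+/Tbx5+ cells, at 0, 0 and 0.641 in EB Nkx2-5+ cells and at 0 in all EB Tbx5+ CPs. High values were thus confined to 2 EHF Nkx2-5+ cells and 1 EHF Nkx2-5+/Tbx5+ cell, and the groups overlapped because EHF Nkx2-5+ replicate 1 was at 0. The mean of the EHF Nkx2-5+ CPs (10.7 ± 9.26 RPM, SD, n = 3 cells) was 4.89 times that of the EHF Nkx2-5+/Tbx5+ CPs and 49.9 times that of the EB Nkx2-5+ CPs. Against the EB Tbx5+ CPs, with 0 reads in 3 cells, the pooled RPM of the EHF Nkx2-5+/Tbx5+ CPs was at least 77.0-fold higher, taking 3 reads over the group as the floor. Of its 239 reads there 237 came from replicate 2, without which the 2 left are under that floor and the log2 difference, with 10 RPM added, was 0.0041. Leaving out that cell moves the 4.89 to 371, and without EHF Nkx2-5+ replicate 1 the 2 ratios were 7.34 and 74.8. They fell to 3.26 without EHF Nkx2-5+/Tbx5+ replicate 1 and to 33.2 without EB Nkx2-5+ replicate 1 or 2. The 49.9 has no value without EB Nkx2-5+ replicate 3, which held every EB read. Of the 5 cells with any Fgf8, the 2 above 10 RPM also had the second heart field gene Isl1 at 10.9 and 14.0 RPM. Isl1 was higher in EHF Nkx2-5+/Tbx5+ replicates 2 and 3 (89.5 and 31.8 RPM), with Fgf8 at 6.48 and 0.0574.

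Fgf9, a ligand known from the mouse epicardium and lung mesothelium, lies at chr14:58070671-58112854. Its RPM was 1.19, 0.536 and 1.92 in EHF Nkx2-5+ cells. It was 0.180, 0.309 and 0.0557 in the EB Nkx2-5+, 0.0544, 0.138 and 0.122 in the EB Tbx5+ and 0.0264, 0.0547 and 0.115 in EHF Nkx2-5+/Tbx5+ cells. All 3 EHF Nkx2-5+ cells lay above the other 9, at very low depth: their 83 summed reads give 1.02 RPM with an exact 95% Poisson interval of 0.812 to 1.26, and the 7 reads of the EHF Nkx2-5+/Tbx5+ CPs give 0.0640 (0.0257 to 0.132). The interval of the lowest EHF Nkx2-5+ cell, replicate 2 (0.323 to 0.837), overlaps that of EB Nkx2-5+ replicate 2 (0.124 to 0.636).

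Fgf10, the ligand that marks the anterior second heart field in the mouse, lies at chr13:118714699-118792573. It was at 1.76, 0.367 and 7.94 RPM in EHF Nkx2-5+ cells, at 0.0360, 0.176 and 0.0279 in the EB Nkx2-5+, 0.490, 0.0829 and 0 in the EB Tbx5+ and 0, 0.0273 and 0.172 in EHF Nkx2-5+/Tbx5+ cells. The EHF Nkx2-5+ cells all lay above the EB Nkx2-5+ and the EHF Nkx2-5+/Tbx5+ cells, though replicate 2 only within counting error of the highest of these. Replicate 2 also fell below EB Tbx5+ replicate 1. Replicate 3 alone held 78.9% of the summed RPM of its subpopulation.

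Spry2, whose product restrains RAS-MAPK signalling below FGF receptors, lies at chr14:105891947-105896819. Its RPM was 2.75, 4.06 and 8.50 in EHF Nkx2-5+ cells and 0.317, 0.246 and 1.81 in EHF Nkx2-5+/Tbx5+ cells. It was 0.504, 2.56 and 1.06 in the EB Nkx2-5+ and 0.844, 3.51 and 1.49 in EB Tbx5+ cells. The EHF Nkx2-5+ cells were the highest of the EHF stage without overlap of values, and EB Tbx5+ replicate 2 lay within their range. In mean RPM they were 6.46 times the EHF Nkx2-5+/Tbx5+ and 3.71 times the EB Nkx2-5+ CPs. With 1 cell left out, the first ratio ran from 4.31 (EHF Nkx2-5+ replicate 3) to 18.1 (EHF Nkx2-5+/Tbx5+ replicate 3). The second ran from 2.48 (EHF Nkx2-5+ replicate 3) to 6.53 (EB Nkx2-5+ replicate 2).

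Dusp6, which encodes a phosphatase that removes phosphate from ERK, lies at chr10:99263231-99267489. It stood at 301 RPM in EB Nkx2-5+ replicate 2 and at 0.144 and 0.306 in the other 2 cells of that subpopulation. The EB Tbx5+ CPs had 4.17, 1.02 and 0 RPM. The EHF stage was almost without reads: 0.0597, 0 and 0 RPM in the EHF Nkx2-5+ and 0, 0 and 0.0574 in EHF Nkx2-5+/Tbx5+ cells, 2 reads in each subpopulation. The Dusp6 cell, EB Nkx2-5+ replicate 2, also had markers of other lineages, the epithelial gene Epcam at 164 RPM, the primitive streak gene T at 47.8 and the endothelial and blood genes Kdr (395), Etv2 (229) and Tal1 (46.6), and their part in its Dusp6 level was not tested. The other listed endoderm markers (Sox17, Foxa2, Cer1, Trh and Cldn6) were at 0 in this cell. So were Tbx6, Mixl1, Fst and Tcf15 of the streak and paraxial mesoderm, and Gata1, with Runx1 at 0.0441 RPM. The markers are not particular to this cell: EB Tbx5+ replicate 1 had Epcam (123 RPM), T (124) and Kdr (339), with Etv2 and Tal1 at 0 and Dusp6 at 4.17. Unlike Spry2, the other brake, Dusp6 was at or near 0 in the cells with the most Fgf8 and Fgf10.

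Foxp2, a forkhead transcription factor gene, spans 540629 bases at chr6:14901349-15441977. It was at 11.1, 33.1 and 26.9 RPM in EHF Nkx2-5+ cells. The other 9 cells had 0.972, 2.03 and 0.613 RPM in the EB Nkx2-5+, 1.42, 1.44 and 0.761 in the EB Tbx5+ and 0.185, 0.164 and 1.81 in EHF Nkx2-5+/Tbx5+ cells. The lowest EHF Nkx2-5+ cell was therefore above the highest cell elsewhere, and the mean of 23.7 ± 11.3 RPM (SD, n = 3 cells) was 32.9 times that of the EHF Nkx2-5+/Tbx5+ and 19.7 times that of the EB Nkx2-5+ CPs. With 1 cell left out, the first ratio ran from 23.8 (EHF Nkx2-5+/Tbx5+ replicate 2) to 136 (EHF Nkx2-5+/Tbx5+ replicate 3). The second ran from 15.8 (EHF Nkx2-5+ replicate 2) to 29.9 (EB Nkx2-5+ replicate 2). Its 1879 reads in EHF Nkx2-5+ cells give 23.1 RPM pooled, with an exact 95% Poisson interval of 22.0 to 24.1. The study named Fgf8, Fgf9, Fgf10, Spry2 and Foxp2 as enriched in EHF Nkx2-5+ cells from these same cells, so their direction there is not independent evidence.

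Foxc2, a forkhead gene needed in mouse for outflow tract and aortic arch formation, lies at chr8:121116171-121118895. It was high in single cells of 2 EHF subpopulations, 106 RPM in EHF Nkx2-5+ replicate 1 and 116 RPM in EHF Nkx2-5+/Tbx5+ replicate 2. The other EHF cells had 1.81 and 0 RPM among the Nkx2-5+ and 0.0528 and 0.0287 among the Nkx2-5+/Tbx5+ CPs. At the EB stage the Nkx2-5+ CPs had 19.5, 0 and 14.0 RPM and all 3 Tbx5+ CPs were at 0. Its paralog Foxc1 was at 10 RPM or more in 2 cells, and only EB Nkx2-5+ replicate 3 had both (161 and 14.0 RPM).

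Wnt2, a secreted WNT ligand, lies at chr6:17985474-18032772. It was high in 1 cell of each subpopulation but the EHF Nkx2-5+: 217 RPM in EB Nkx2-5+ replicate 1, 219 in EB Tbx5+ replicate 3 and 106 in EHF Nkx2-5+/Tbx5+ replicate 1. The remaining 9 cells were at or below 0.167 RPM. In the EHF Nkx2-5+ CPs 1 read was found in 3 cells, against 4025 reads in EHF Nkx2-5+/Tbx5+ cells, all but a few from replicate 1. Of the 3 cells with Wnt2 above 10 RPM, 2 also had the anterior Hox gene Hoxb1, a second heart field gene, at 273 and 68.7 RPM. Hoxb1 was also at 89.2 RPM in EB Tbx5+ replicate 2 and 57.1 in EHF Nkx2-5+/Tbx5+ replicate 2, with Wnt2 at 0 and 0.0547.

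Aldh1a2, which encodes the enzyme that makes retinoic acid in the embryo, lies at chr9:71215789-71296243. It was at 0, 400 and 64.2 RPM in the EB Tbx5+ and 0.180, 49.2 and 0 in EB Nkx2-5+ cells. No read was found in the 3 EHF Nkx2-5+ cells, which allows up to 0.0368 RPM over the group, and the EHF Nkx2-5+/Tbx5+ CPs had 0.0264, 0.519 and 0 RPM. The 3 cells above 10 RPM were thus all of the EB stage. Cyp26a1, which encodes an enzyme that degrades retinoic acid, was above 10 RPM in EB Nkx2-5+ replicate 3 (60.5) and EHF Nkx2-5+ replicate 3 (620), and in none of the 3 cells with Aldh1a2 at that level.

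The comparison of the 2 EHF subpopulations asks what separates Nkx2-5+ CPs from those that also carried Tbx5. The difference given is the log2 ratio of mean RPM after adding 10 RPM to each mean, which understates the change of low genes, and a gene counts as higher or lower from 2-fold on. In the EHF Nkx2-5+ CPs Foxp2 was higher (log2 difference 1.65) and Wnt2 lower (-2.18), 1 of 9 genes in each direction against 8.83% and 15.3% of all listed symbols. Fgf9, Fgf10, Spry2 and Foxp2 lay above in all 3 cells and Wnt2 below, where 2.81% and 3.32% of all symbols lie without overlap. The study named Fgf9, Fgf10, Spry2 and Foxp2 as enriched in these same EHF Nkx2-5+ cells, so their share is not independent evidence. The order of Wnt2 is within counting error in 2 of the EHF Nkx2-5+/Tbx5+ cells, whose 0.0547 and 0.0860 RPM lie under the 0.240 RPM that a count of 0 allows in EHF Nkx2-5+ replicate 3. Fgf8 (0.76), Spry2 (0.49), Fgf10 (0.41) and Fgf9 (0.16) pointed the same way within 2-fold, and Foxc2 (-0.081), Dusp6 (0.00011) and Aldh1a2 (-0.026) were close to 0. The median over the 9 genes was 0.16 and that over all symbols 0. Without EHF Nkx2-5+/Tbx5+ replicate 1 the Wnt2 difference was -0.0088. Fgf8 passed 2-fold without EHF Nkx2-5+ replicate 1 (1.09), the cell at 0, and without EHF Nkx2-5+/Tbx5+ replicate 2 (1.04). Foxc2 came to -2.16 without EHF Nkx2-5+ replicate 1 and 2.19 without EHF Nkx2-5+/Tbx5+ replicate 2.

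Between the stages, the Nkx2-5+ CPs were compared at EHF against EB. Foxp2 (1.59), Foxc2 (1.12) and Fgf8 (1.02) were higher at EHF and Dusp6 (-3.46), Wnt2 (-3.04) and Aldh1a2 (-1.40) lower, 3 genes each, against 8.07% and 15.3% of all symbols. Fgf9, Fgf10, Spry2 and Foxp2 were above in all 3 cells and Dusp6 and Wnt2 below, against 2.33% and 5.72%. Those above are again among the genes that the study named from these same cells. The same limit of 0.240 RPM lies above 1 EB cell for Dusp6 (0.144) and 2 for Wnt2 (0.0441 and 0.167). In pooled reads Dusp6 was lower at a ratio of 0.000310 (counting interval 3.75e-05 to 0.00112) and Wnt2 at 0.000176 (4.44e-06 to 0.000978), from 2 and 1 reads in the EHF cells. Aldh1a2 was at least 353-fold lower in pooled RPM. Each of the 3 lower genes had a single high EB cell. Without EB Nkx2-5+ replicate 2 the differences were -0.029 for Dusp6 and -0.013 for Aldh1a2, and without replicate 1 that of Wnt2 was -0.014. Foxc2 turned to -0.96 without EHF Nkx2-5+ replicate 1 and was at 0.78 without EB Nkx2-5+ replicate 2. Fgf8 came within 2-fold without EHF Nkx2-5+ replicate 2 (0.85) or 3 (0.79). Foxp2 stayed beyond 2-fold whichever single cell was left out.

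Between EB Tbx5+ and EHF Nkx2-5+/Tbx5+ CPs, Foxc2 was higher at EHF (2.28) and Aldh1a2 lower (-4.02), 1 gene each against 12.6% and 11% of all symbols. Foxc2 was also above in all 3 cells (2.68% of all symbols), at least 1367-fold in pooled RPM, but 2 of the 3 had only 1 or 2 reads and the difference was 0.0059 without replicate 2. In this comparison 3.4% of all symbols lay below in all 3 cells, and none of the 9 genes did. Aldh1a2 stayed lower without EB Tbx5+ replicate 2 (-2.05). Wnt2 was at -0.87, at 2.18 without EB Tbx5+ replicate 3, at -3.04 without EHF Nkx2-5+/Tbx5+ replicate 1 and at -1.40 without EB Tbx5+ replicate 1 or 2. The graded genes were at -0.15 (Spry2), -0.064 (Foxp2), -0.018 (Fgf10) and -0.0057 (Fgf9) and Dusp6 was at -0.23, values that the added 10 RPM holds near 0 for genes this low. In pooled reads with nothing added the ratio of EHF to EB was 0.392 for Spry2 (counting interval 0.301 to 0.508) and 0.570 for Foxp2 (0.423 to 0.762). For Fgf10 it was 0.322 (0.116 to 0.787), for Fgf9 0.615 (0.202 to 1.74) and for Dusp6 0.0102 (0.00122 to 0.0373), the last from 2 against 190 reads. This comparison and that of the EHF subpopulations share the EHF Nkx2-5+/Tbx5+ cells, and each subpopulation stands in 2 of the 4 comparisons.

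Within the EB stage, Aldh1a2 was higher in the Tbx5+ CPs (2.64), and Dusp6 (-3.24) and Foxc2 (-1.08) were lower, against 9.09% and 12% of all symbols in those directions. No gene of the 9 separated the 2 sets of 3 cells, where 2.25% of symbols lay above and 3.56% below. The means of Foxp2 (1.20 in both subpopulations) and Wnt2 (72.5 and 72.9 RPM) were nearly equal. For Wnt2 the equality came from 1 cell on each side: the difference was 3.04 without EB Nkx2-5+ replicate 1 and -3.04 without EB Tbx5+ replicate 3. Dusp6 turned to 0.20 without EB Nkx2-5+ replicate 2. Aldh1a2 was at 0.67 without EB Tbx5+ replicate 2 and at 4.03 without EB Nkx2-5+ replicate 2. Foxc2 came within 2-fold without EB Nkx2-5+ replicate 1 (-0.76) or 3 (-0.98).

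**Figure D2:**
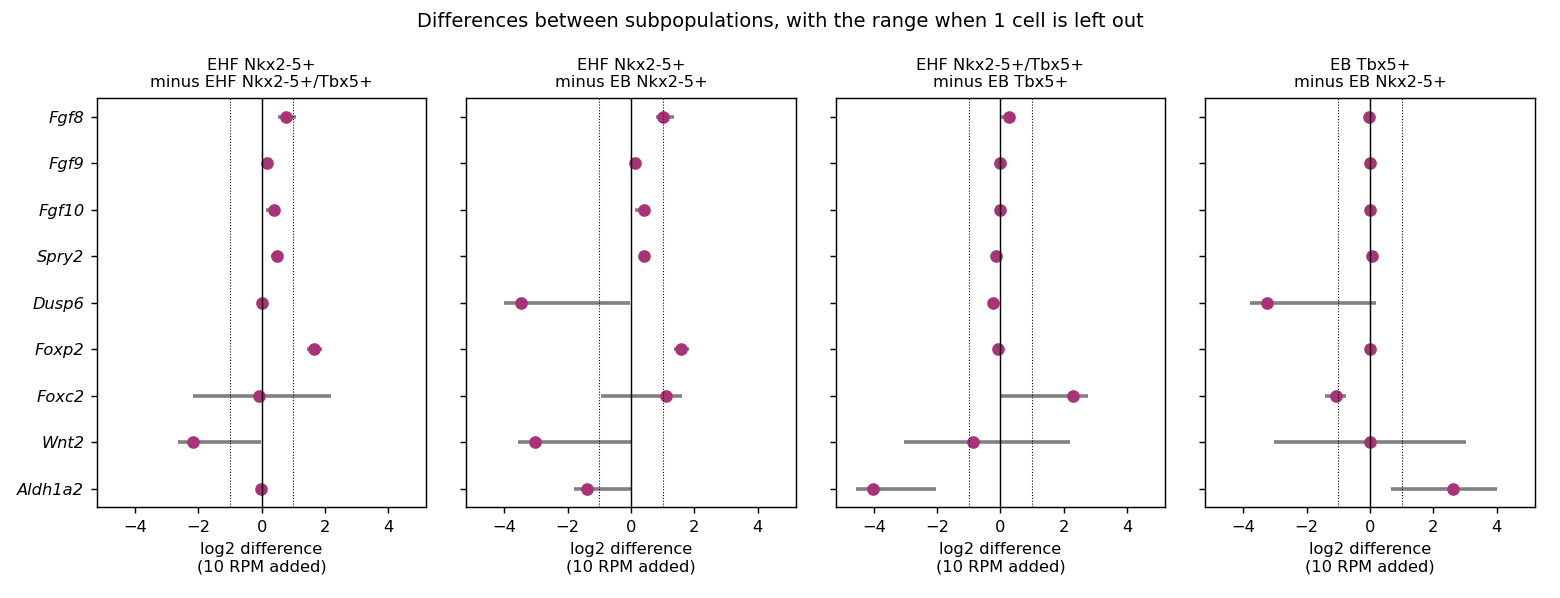
Log2 difference of mean RPM (10 RPM added) of the 9 genes in the 4 comparisons, with dotted lines at 2-fold and grey bars for the range when 1 cell at a time is left out. Foxp2 stays beyond 2-fold in both comparisons of the EHF Nkx2-5+ CPs, at 1.65 and 1.59, whereas the bars of Wnt2, Foxc2 and Dusp6 reach or cross 0 in comparisons where their point lies beyond 2-fold.

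The graded genes moved together over the cells. Spearman's rho over the 12 cells was 0.895 for Foxp2 with Spry2, 0.855 with Fgf10 and 0.825 with Fgf9, 0.811 for Fgf9 with Spry2, 0.687 for Fgf10 with Spry2 and 0.648 for Fgf9 with Fgf10. Over the 9 cells outside the EHF Nkx2-5+ CPs it was 0.803 for Foxp2 with Fgf10, 0.817 with Spry2 and 0.633 with Fgf9, and 0.293 for Fgf9 with Fgf10. Each point is 1 library, and the genes of a cell share its depth and amplification. Fgf8 and Dusp6, by contrast, had rho of 0.289 and 0.0218 with Spry2.

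Many other genes ran in the same order over the cells. Among 10432 other genes averaging 0.1 RPM or more, 27 had a rho of 0.9 or more with Foxp2, 17 with Fgf10, 10 with Spry2 and 4 with Fgf9. The 27 of Foxp2 exceed the number of such neighbours that 96.7% of genes have, while 65.4% of genes have fewer than the 4 of Fgf9. The closest to Foxp2 were Kif3a (0.986), a kinesin gene, Shank1 (0.984), a synaptic scaffold gene, and Slfn5 (0.979). Fgf10 shared 12 of its 17 with Foxp2 and Spry2 8 of its 10, whereas Fgf10 and Spry2 shared 1 with each other and Fgf9 shared 0 of its 4 with any of the other 3. These genes were picked after their values were seen.

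Genes with the 3 EHF Nkx2-5+ cells above the other 9 were frequent at low levels. At a mean of 0.1 to under 1 RPM they were 45 of 2266 genes (1.99%), Fgf9 among them, where the other subpopulations had 8, 4 and 8 such genes. At 1 to under 10 RPM, where Foxp2 lies, they were 28 of 3136 (0.893%), against 15, 19 and 23. At 10 RPM or more the EHF Nkx2-5+ CPs had the fewest, 19 of 5031 (0.378%), against 27, 24 and 50.

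**Figure D3:**
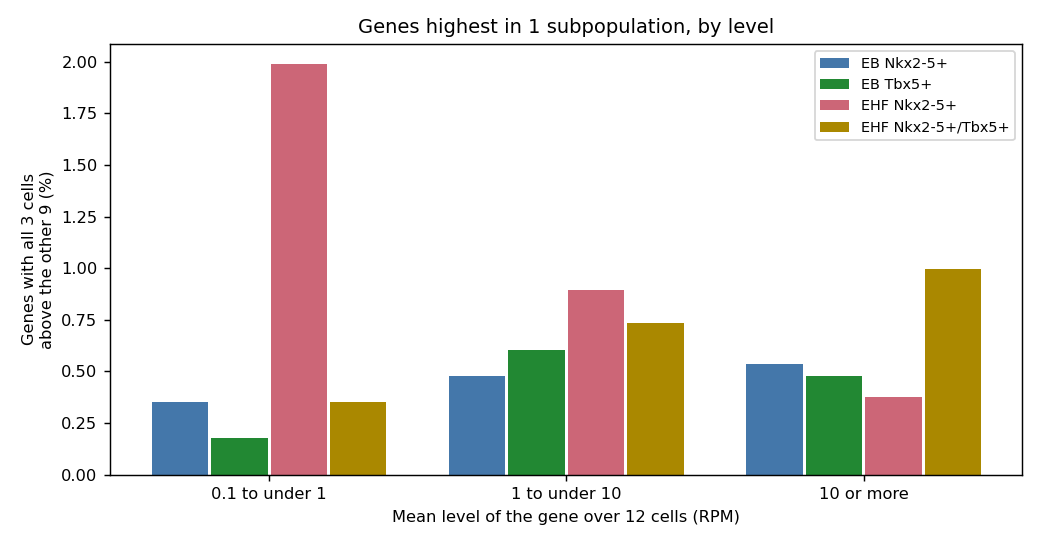
Percent of genes whose 3 cells in a subpopulation all lie above the other 9 cells, by mean level of the gene over 12 cells. The EHF Nkx2-5+ bar is highest for genes at 0.1 to under 1 RPM (1.99%) and lowest for genes at 10 RPM or more (0.378%).

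Apart from Fgf9 and Foxp2, 22 genes under 10 RPM had this order with reads in every cell, among them Mapt, Ncan, Unc13c and Dpysl2, which are known from the nervous system, the transcription factor genes Sp8 and Nfib, and Slfn5. These names were picked from the 22, which also hold Alg11, Ggcx, C5ar2 and Dnase1l3, and the share of nervous system genes was not counted. The median level of the 22, as a share of each gene's own highest cell, was 0.255, 0.199 and 1 in EHF Nkx2-5+ replicates 1, 2 and 3. It was 0.0126 to 0.0830 in the other 9 cells. The summed RPM of the 22 was 95.2, 55.4 and 299 in EHF Nkx2-5+ cells and 5.92 to 32.9 elsewhere. Mapt, for example, ran from 0.0273 to 1.01 RPM outside and from 1.30 to 6.41 RPM inside the EHF Nkx2-5+ CPs. Replicate 3, which was highest for most of them, is the shallowest cell with the lowest RPM sum, and their part in the levels of Fgf9, Fgf10, Spry2 and Foxp2 was not tested. In a later header of the table, EHF Nkx2-5+ replicates 1 and 3 carry file names of another form than the other 10 cells, and whether they were sequenced in another run is not stated. Replicate 2, named like the rest, had Foxp2 (33.1 RPM), Spry2 (4.06) and Fgf9 (0.536) above, and Fgf10 (0.367) within, the range of the 9 cells of the other subpopulations. Its 95% Poisson interval for Spry2 (3.43 to 4.78) overlaps that of EB Tbx5+ replicate 2 (2.93 to 4.18). For Fgf9 (0.323 to 0.837) it overlaps that of EB Nkx2-5+ replicate 2 (0.124 to 0.636). The part of a sequencing run in these levels was not tested. The fixed neural ectoderm markers, of which 3 of 6 were listed, summed to at most 0.226 RPM in EHF Nkx2-5+ cells with Utf1 at 0, and the endoderm markers, 6 of 7 listed, to at most 0.0895 with Foxa2, Cer1, Trh, Cldn6 and Epcam at 0. Endothelial and blood markers, 5 of 7 listed, summed to 0.423 to 498 RPM there, with Etv2 and Kdr above 1 RPM and Gata1 at 0. The 498 was almost all Kdr (495) in replicate 3, the cell with the most Fgf8, Fgf9, Fgf10 and Spry2, and its part in their levels was not tested.

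**Figure D4:**
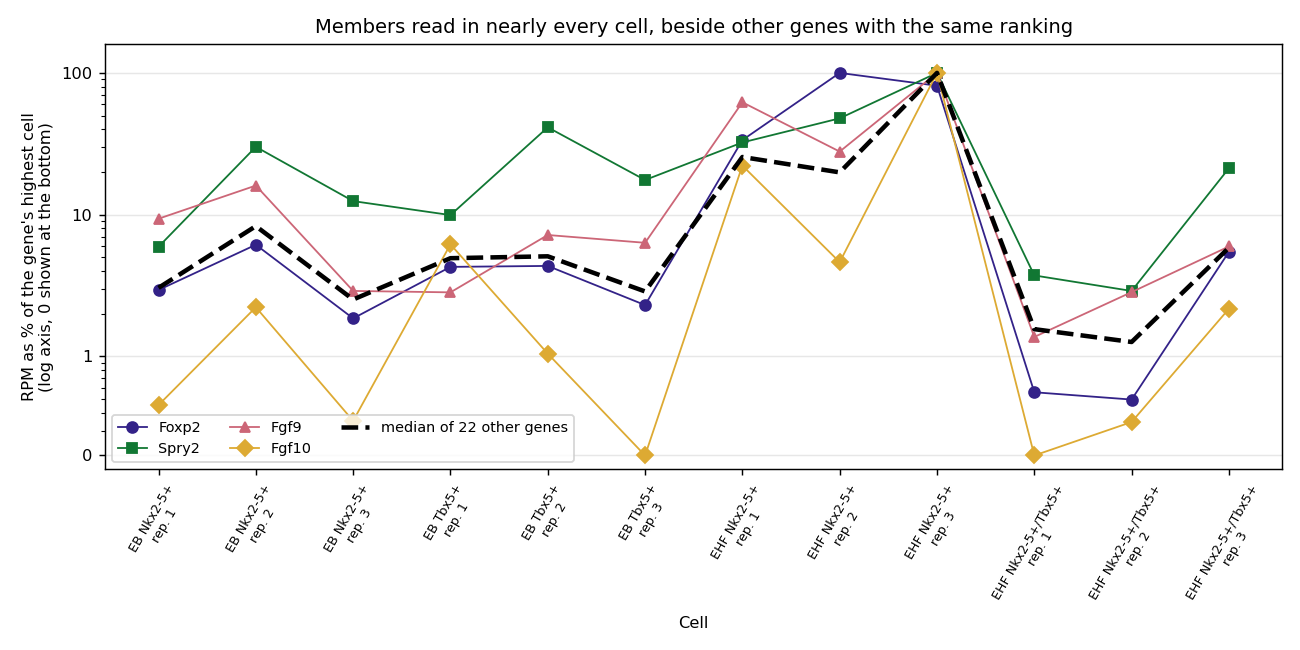
RPM of Foxp2, Spry2, Fgf9 and Fgf10 in each cell as percent of the gene's highest cell (log axis, 0 drawn at the bottom), with the median of 22 other genes as a dashed line. The 22 were picked for having the EHF Nkx2-5+ cells highest, so the peak there follows from the choice. Foxp2 keeps the order of the dashed line within each other subpopulation. Like the line, the other members rise at EB Nkx2-5+ replicate 2 and EHF Nkx2-5+/Tbx5+ replicate 3 but depart from it elsewhere. Outside the EHF Nkx2-5+ CPs Spry2 was highest at EB Tbx5+ replicate 2 (3.51 RPM) and Fgf10 at EB Tbx5+ replicate 1 (0.490). The line is highest there at EB Nkx2-5+ replicate 2.

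Of the fixed pathway lists, 13 of 22 FGF ligands were listed in the table, 5 reached 1 RPM in a cell and 2 reached 10 RPM, Fgf8 and Fgf3, the latter at 104 RPM in EB Nkx2-5+ replicate 3 alone. Between the EHF subpopulations 0 of the 13 ligands were past 2-fold in either direction, against 24.1% of all symbols. The added 10 RPM largely sets this count, since no ligand averaged 10 RPM over the 12 cells. With 1 RPM added instead the differences were 1.87 for Fgf8, 1.06 for Fgf9 and 2.03 for Fgf10. The receptor side was broader. Fgfr1, the main FGF receptor of early mesoderm, was at 25.8 to 1054 RPM in 11 cells, including all 3 EHF Nkx2-5+ CPs (331, 131 and 194), and at 0.258 in EHF Nkx2-5+/Tbx5+ replicate 3. Fgfr3 and Fgfrl1 reached 10 RPM in 6 and 7 cells, and Fgfr4 in 1. In the RAS-MAPK relay 17 of 17 genes were listed. In the EHF Nkx2-5+ against the EHF Nkx2-5+/Tbx5+ cells 2 were higher and 4 lower, against 8.83% and 15.3% of all symbols. They were led by the adaptor gene Grb2 (2.55, from 940 RPM in replicate 2) and the kinase gene Araf (-5.89, from 1915 RPM in EHF Nkx2-5+/Tbx5+ replicate 3). None of these calls comes with all 3 cells apart.

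Of the feedback and target genes, 12 of 14 were listed. Between the EHF subpopulations 3 were higher in the Nkx2-5+ CPs and 0 lower, against 8.83% and 15.3% of all symbols, with a median of 0.013 over the 12. Dusp4, a phosphatase gene, was at 2.48 from 201 RPM in replicate 1, and Etv5 at 1.24. Etv5 was at 22.5 and 44.3 RPM in EHF Nkx2-5+ replicates 2 and 3, the cells of that subpopulation with Fgf8, and at 0 in replicate 1. Among EHF Nkx2-5+/Tbx5+ cells Etv5 was at 0 in replicate 2, with Fgf8 at 6.48 RPM, and at 11.1 in replicate 1, with Fgf8 at 0. It was higher still in EB cells without Fgf8 (173 RPM in EB Nkx2-5+ replicate 2 and 225 in EB Tbx5+ replicate 2), and the first of these was the Dusp6 cell. EB Nkx2-5+ replicate 3, the EB cell with Fgf8 (0.641) and Fgf3 (104), had Etv5 at 169 RPM. That cell also had the neural ectoderm markers Pou3f1 (82.5 RPM) and Otx2 (11.2), with Utf1 at 0, and their part in these levels was not tested. Pou3f1 was at 48.9 RPM in EB Tbx5+ replicate 1 as well. From EB to EHF in the Nkx2-5+ CPs 2 of the 12 were higher and 2 lower, against 8.07% and 15.3% of all symbols. Dusp4 was at 2.94 and Etv5 at -1.94. The targets thus did not run in 1 order over the cells.

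Of 19 second heart field genes 18 were listed, the members Fgf8, Fgf10, Foxp2, Foxc2, Wnt2 and Aldh1a2 among them. Between the EHF subpopulations 1 was higher in the Nkx2-5+ CPs, Foxp2, and 4 were lower, Wnt2 among them, against 8.83% and 15.3% of all symbols. The median was -0.054. Isl1, the transcription factor gene most used to mark this field, had 2.09, 10.9 and 14.0 RPM among EHF Nkx2-5+ and 0.0528, 89.5 and 31.8 in EHF Nkx2-5+/Tbx5+ cells, a difference of -1.41 with overlap. It was at or below 1.37 RPM in the EB CPs. Tbx1 was above 1 RPM only in EHF Nkx2-5+/Tbx5+ replicate 2 (15.0), the cell with the most Foxc2 and Isl1. Foxp1 and Foxp4, the paralogs of Foxp2, were lower in the EHF Nkx2-5+ than in EHF Nkx2-5+/Tbx5+ cells by mean, at -0.91 and -2.51, the direction opposite to Foxp2, with overlapping cells.

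Of the retinoic acid genes 16 of 18 were listed. In the EHF Nkx2-5+ against the EHF Nkx2-5+/Tbx5+ cells 1 was higher and 1 lower, against 8.83% and 15.3% of all symbols. These were Cyp26a1 (4.44, from replicate 3 alone) and the receptor gene Rxrb (-2.82). Crabp1, which encodes a retinoic acid binding protein, was at 10 RPM or more in 8 cells, among them 2 of the 3 with Aldh1a2. Of 19 WNT ligands 8 were listed, and Wnt4 (92.2 RPM in EHF Nkx2-5+ replicate 2) and Wnt5a (85.2 in EHF Nkx2-5+/Tbx5+ replicate 2) were, like Wnt2, high in few cells.

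**Figure D5:**
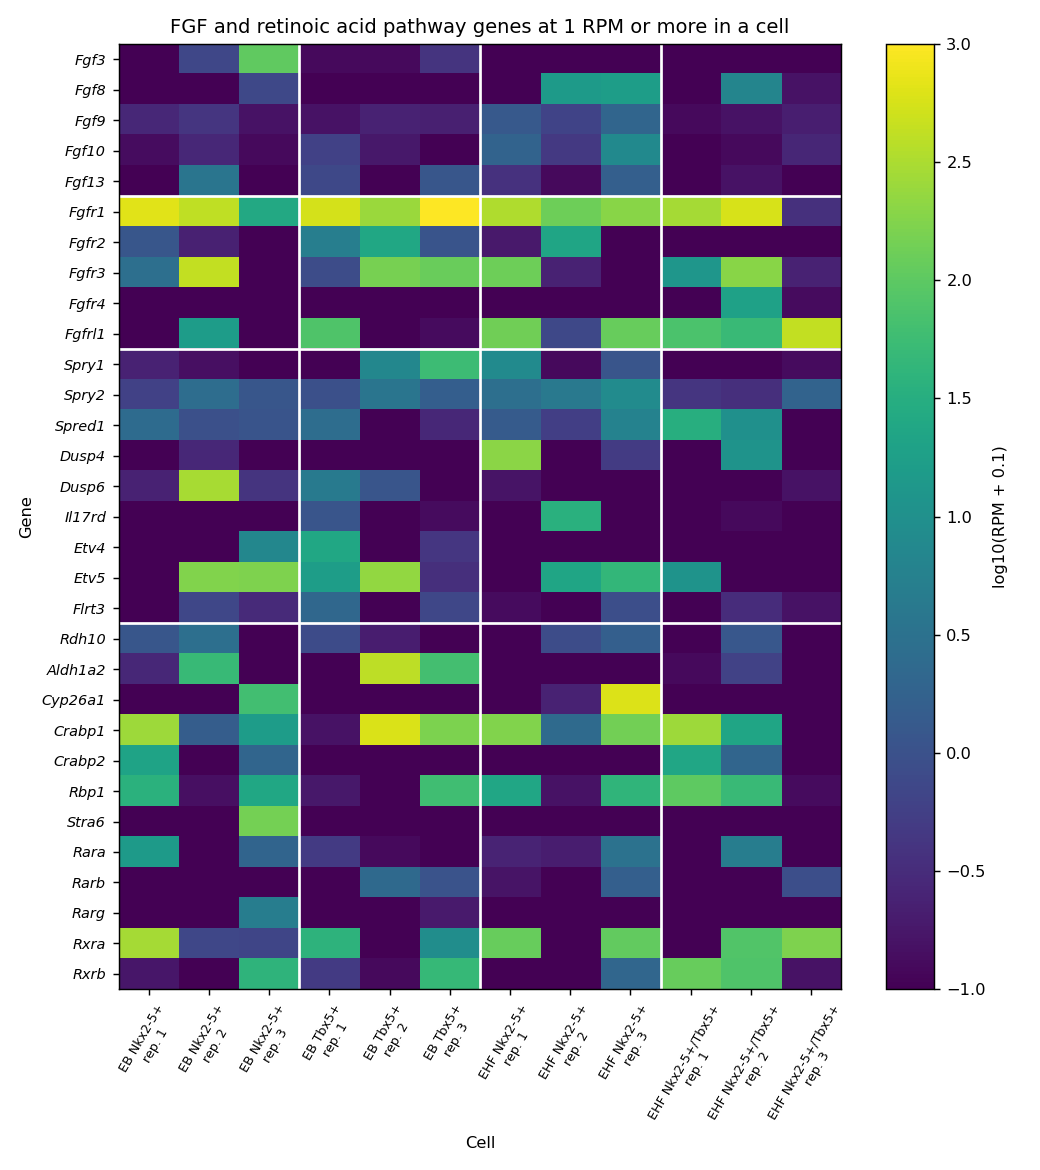
Level per cell, as log10(RPM + 0.1), of the FGF ligands, FGF receptors, feedback and target genes and retinoic acid genes (blocks from top to bottom) that reach 1 RPM in a cell. Fgfr1 reaches 10 RPM in 11 of 12 columns and Etv5 in 7, over all 4 subpopulations. Dusp6, Cyp26a1 and Aldh1a2 do so in 1, 2 and 3 columns.

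The genes most like each member in log2(RPM + 10) over the 12 cells were sought among 5027 other genes averaging 10 RPM or more. For Dusp6 they were Lats2 (Pearson r 0.998) and Phyh (0.997), for Fgf10 Arhgap42 (0.994) and Grik3 (0.992) and for Aldh1a2 2310039H08Rik (0.989) and Nt5c3 (0.959), all resting on 1 to 3 high cells. For Fgf9 they were Atf7ip (0.978) and Rnf138 (0.965), for Foxp2 Tenc1 (0.968) and Atg7 (0.953) and for Spry2 Kif3a (0.935) and Klhl31 (0.921). For Fgf8 they were Cby1 (0.919) and Cyr61 (0.904), for Foxc2 Psrc1 (0.953) and Sdha (0.941) and for Wnt2 Rac3 (0.947) and Zbtb25 (0.931). No gene of the fixed pathway lists was among these 18.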

How the data were processed

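Each sample is the amplified cDNA of 1 cell. The authors picked cells with a capillary pipette, primed with oligo(dT), amplified the cDNA by PCR, made Nextera libraries and aligned the reads with mm10 as genome build; the submitters' processing notes name CASAVA 1.7.0 and Partek, and no aligner is named. The authors deposited a signal per gene and cell, reads per 1000000 aligned reads (RPM), in a table that repeats itself 64 times; a single copy was used. Of 14085 names 22 had been turned into dates and were left out. Reads were recovered as RPM times the aligned reads of the table: 79 of 79 member values above 0 came out whole within 0.02 reads, and 96.3% of values of 0.5 to 20 reads over all genes. Whether counting used strand is not stated, so reads of overlapping antisense genes cannot be told apart.

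Groups come from the labels. A log2 difference compares the mean RPM of 3 cells with 10 RPM added to each mean, and 2-fold is the limit for a call. No test was made, since a subpopulation is 1 sample. The members and gene lists were chosen with earlier results of these data known. By the rule used, the text names all 9 members, up to 4 other genes per list and comparison with the largest differences at a mean of at least 10 RPM, the 2 genes most like each member, and Nkx2-5, Tbx5, Isl1 and markers; the remaining names were chosen after their values were seen. Alternatives were 1 or 100 RPM added, means of log2 values, medians, 2 rescalings, minimum levels, and cells left out. The low-level genes that run like Foxp2, the background at 0.1 RPM or more and the ratios of means were added after seeing the data. Fold and order calls were run on simulated data for genes averaging at least 10 RPM, which does not cover Fgf8, Fgf9, Fgf10, Spry2 and Foxp2. For these calls a pass limit was set on fold only, at the smaller of the simulated spreads between cells. Gene positions and sequences are RefSeq GRCm38.p6; Fgf8, Foxp2 and Foxc2 had no stretch before their start in the table used. Versions were matplotlib 3.10.9, scipy 1.17.1, pandas 2.3.3, numpy 2.4.6 and Python 3.11.15.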

Additional observations from a re-analysis of the deposited data

Results flagged for a closer look

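In Spry2 and Fgf10 the differences between the stages had opposite signs in the 2 lines of comparison. In both genes every EHF Nkx2-5+ cell lay above the EB Nkx2-5+ mean and every EHF Nkx2-5+/Tbx5+ cell below the EB Tbx5+ mean. Foxp2 (1.59 against -0.064) and Fgf9 (0.14 against -0.0057) had opposite signs too. In these, EHF Nkx2-5+/Tbx5+ replicate 3 lay above the EB Tbx5+ mean. The log2 difference of EHF against EB was larger in the Nkx2-5+ than in the Tbx5-labelled CPs by 0.56 for Spry2 (0.41 against -0.15) and by 0.42 for Fgf10 (0.41 against -0.02). The difference between the lines was not tested. In Spry2, EHF Nkx2-5+/Tbx5+ replicate 3 (1.81 RPM) lay above EB Tbx5+ replicates 1 and 3 (0.844 and 1.49). In Fgf10 the Tbx5-labelled side rests on 7 reads at EHF and 21 reads at EB, 18 of them from EB Tbx5+ replicate 1. Without that cell the Fgf10 difference was 0.0036, the same sign as in the Nkx2-5+ CPs, and EHF Nkx2-5+/Tbx5+ replicate 3 (0.172 RPM) was above EB Tbx5+ replicates 2 and 3 (0.0829 and 0). Groups of 3 cells are too small for a check of single outlying cells.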

How the results depend on the processing

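No paired analysis was possible because no test was made and the replicate numbers only name the cells. Of the values of single members under the alternatives, 435 moved by less than the spread between cells, 64 moved by more and 4, of differences past 2-fold, reversed. Of 314 values for differences within 2-fold, 25 changed sign, the widest being Wnt2 between the Tbx5-labelled CPs (-0.87 to 2.18), Foxc2 between the EHF subpopulations (-0.081 to 2.19) and Wnt2 within the EB stage (0.0073 to -3.04). The reversals past 2-fold were Foxc2 between the stages in Nkx2-5+ CPs (-1.02 with medians and -0.96 without EHF Nkx2-5+ replicate 1, and -0.96 to 1.60 over single cells left out) and Dusp6 within the EB stage (0.097 with medians and 0.20 without EB Nkx2-5+ replicate 2, and -3.78 to 0.20 over single cells left out). The number of members past 2-fold depended on the RPM added. Between the EHF subpopulations it was 2, and 6 with 1 RPM added, 0 with 100 RPM and 1 with a minimum mean of 10 RPM, the last because 5 of the 9 genes, Foxp2 among them, are under that minimum. Between the stages in Nkx2-5+ CPs it was 6, and 1 with 100 RPM, 3 with means of log2 values and 3 with medians. Between the Tbx5-labelled CPs it was 2, and 5 with 1 RPM, 1 with 100 RPM and 1 with medians. Within the EB stage it was 3, and 1 with 100 RPM. Leaving out 1 cell at a time gave 1 to 4, 3 to 6, 1 to 3 and 2 to 4 in these comparisons. Without the 2 cells with the fewest genes, the first 3 counts were 2, 5 and 2. The share of symbols past 2-fold between the EHF subpopulations was 24.1%, and 32.5% among genes at 0.1 RPM or more. The number of genes at 0.1 to under 1 RPM with EHF Nkx2-5+ cells highest was 45, and 74, 99 and 59 without replicate 1, 2 or 3, where fewer cells must exceed the rest by construction. For Fgf9 and Fgf10, with 83 and 171 reads in the EHF Nkx2-5+ CPs and 6 to 21 elsewhere, depth limits what can be read from the other subpopulations.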
